A study of Mus musculus with 8 samples.

Results

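Figla, Nobox, Lhx8, Sohlh1, Sohlh2, Taf4b, Tbpl2 and Foxo3 encode regulators of the oocyte transcription program, and their mRNAs were compared between CNOT7&8 KO and control oocytes. The 8 genes were taken by symbol from a table of read counts for 46078 mouse genes, and each symbol matched 1 row. All 8 passed the filter on low counts (0.2 CPM or more in at least 2 libraries), which left 19241 genes for testing, but Sohlh1 passed it only through the KO libraries. CPM is a gene's count scaled to a common library size by edgeR. CNOT7 and CNOT8 are catalytic deadenylase subunits of the CCR4–NOT complex, beside CNOT6 and CNOT6L. The complex shortens poly(A) tails and thereby promotes mRNA decay and represses translation. In the KO group, Cnot7 fl/fl and Cnot8 fl/fl alleles were combined with Zp3-Cre, a transgene that expresses Cre from the promoter of Zp3 in growing oocytes. The control group is labeled Zp3-Cre alone, so Cre was present in both groups, and whether it carried a floxed allele is not given in the sources used here. There were 4 libraries per group, each from total RNA of 100 fully grown oocytes at the germinal vesicle (GV) stage. The methods name a TruSeq Stranded mRNA kit and describe its purification as ribosomal RNA depletion. Whether poly(A) tail length affected the counts was not tested. The oocytes came from females 4 weeks old on a C57BL/6J background, 48 h after PMSG injection, were freed of cumulus cells and were held at the GV stage with dibutyryl cAMP. Nothing in the labels says which females each library came from, so the p-values measure the spread between these libraries, which may be technical.

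These factors act at successive steps of oocyte life. SOHLH1 and SOHLH2, a pair of germ cell basic helix-loop-helix (bHLH) proteins, and the LIM-homeodomain protein LHX8 act early in follicle formation. FIGLA, another bHLH protein, binds E-boxes in the zona pellucida genes together with ubiquitous bHLH partners, and the homeodomain protein NOBOX is required for the growth of the primordial follicle and for oocyte genes such as Gdf9 and Pou5f1. TBPL2 (also TBP2 or TRF3) replaces the TATA-binding protein TBP in growing oocytes and works with TFIIA, whereas TAF4B is a gonadal form of the TFIID subunit TAF4. FOXO3, a forkhead factor kept out of the nucleus by KIT–PI3K–AKT signaling, holds primordial follicles dormant. Fully grown GV oocytes are nearly silent in transcription, so an mRNA measured there is largely a stored one.

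Library totals were 14943671 to 44092144 counts in control and 8639444 to 26784110 counts in KO oocytes, so that 3 counts corresponded to 0.0680 to 0.347 CPM. Cnot8 mRNA was 168 ± 20.0 CPM in control and 35.2 ± 1.40 CPM in KO oocytes (SD, n = 4 each), and Cnot7 mRNA was 933 ± 77.3 and 719 ± 70.8 CPM. Control replicate 1, the deepest library, and KO replicate 4 stood apart in the same way from the other libraries of their groups (r = 0.59 between their deviations, across genes). Without both libraries, no member changed its direction or its side of the threshold. The summed level of 8 oocyte markers was 15189 to 16932 CPM in control and 12979 to 15130 CPM in KO oocytes. Within this list Ddx4, a germ cell RNA helicase gene, rose (log2 fold change 0.96, adjusted p = 0.000553), Zp1, Oosp1 and Zp3 fell, and the other 4 were not called; the call for Oosp1 (log2 fold change −0.43, adjusted p = 0.00752) was lost with library sizes alone (adjusted p = 0.222) and with TMM on genes of at least 10 CPM (adjusted p = 0.100). The summed level of 11 granulosa cell markers was 127 to 172 CPM in control and 213 to 265 CPM in KO oocytes. Of the 10 that were tested, 5 rose (Inha, Fshr, Kitl, Inhba and Nr5a2) and 1 fell (Cyp19a1). Foxl2, which did not pass the filter, had no more than 0.11 CPM in any library. For 5 blood and macrophage markers the summed level was 0.828 to 1.83 CPM in control and 3.15 to 5.36 CPM in KO oocytes. Of the 3 that were tested, 2 rose, Cd68 and Ptprc. Ptprc had 0.122 ± 0.146 and 0.615 ± 0.343 CPM, near the limit of detection (log2 fold change 2.53, adjusted p = 0.0108 by edgeR's quasi-likelihood test). Adgre1 was not called, and Hbb-bs and Hba-a1 had 0 counts in every library. Among all tested genes, 31.2% rose and 24.1% fell with an adjusted p of at most 0.05. The part of these markers in the results was not tested.

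The members did not move as a block (plot of CPM by library). A gene was called upregulated or downregulated when it changed 2-fold or more with a false discovery rate (FDR) up to 0.05. By this threshold 1 of the 8 was upregulated in KO oocytes, where 23.8% of all tested genes were. This was Sohlh1, which had to differ in order to be tested, so that its call supports nothing. None was downregulated by edgeR's quasi-likelihood test, where 6.56% of all tested genes were. That count was also 0 with an unadjusted p under 0.05, with edgeR's exact test and with DESeq2. With the FDR alone, 3 members were higher, against 31.2% of all genes. These were Nobox, Taf4b and Sohlh1, whose call adds nothing here either. Another 4 were lower (Figla, Lhx8, Sohlh2 and Foxo3), against 24.1%. The 4 libraries of a group did not overlap with those of the other for these same 7 genes. In KO oocytes 3 were higher, Sohlh1 included with the same limit (27.0% of all genes), and 4 were lower (21.4% of all genes). The exact two-sided permutation test over libraries gave p = 0.0286 for each of these genes other than Sohlh1, the smallest p that 4 against 4 libraries allow. Groups without overlap always give this p, so it adds nothing to their separation. Tbpl2 passed neither threshold (exact permutation p = 0.257). The median log2 fold change was −0.36 over the members and 0.12 over all tested genes. With library sizes alone both medians moved up together, to −0.07 and 0.40, so a value near 0 on that scale is below that of the median gene. Here and below, CPM are scaled by trimmed mean of M values (TMM) factors, and fold changes are KO over control on the log2 scale with a standard error (SE). An mRNA that is less abundant in each oocyte and one that is carried by fewer of the 100 oocytes cannot be told apart in such pools. CPM are also shares of a library, so a rise or fall is relative to the other genes. The amount of an mRNA per oocyte was not measured.

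**Figure D1:**
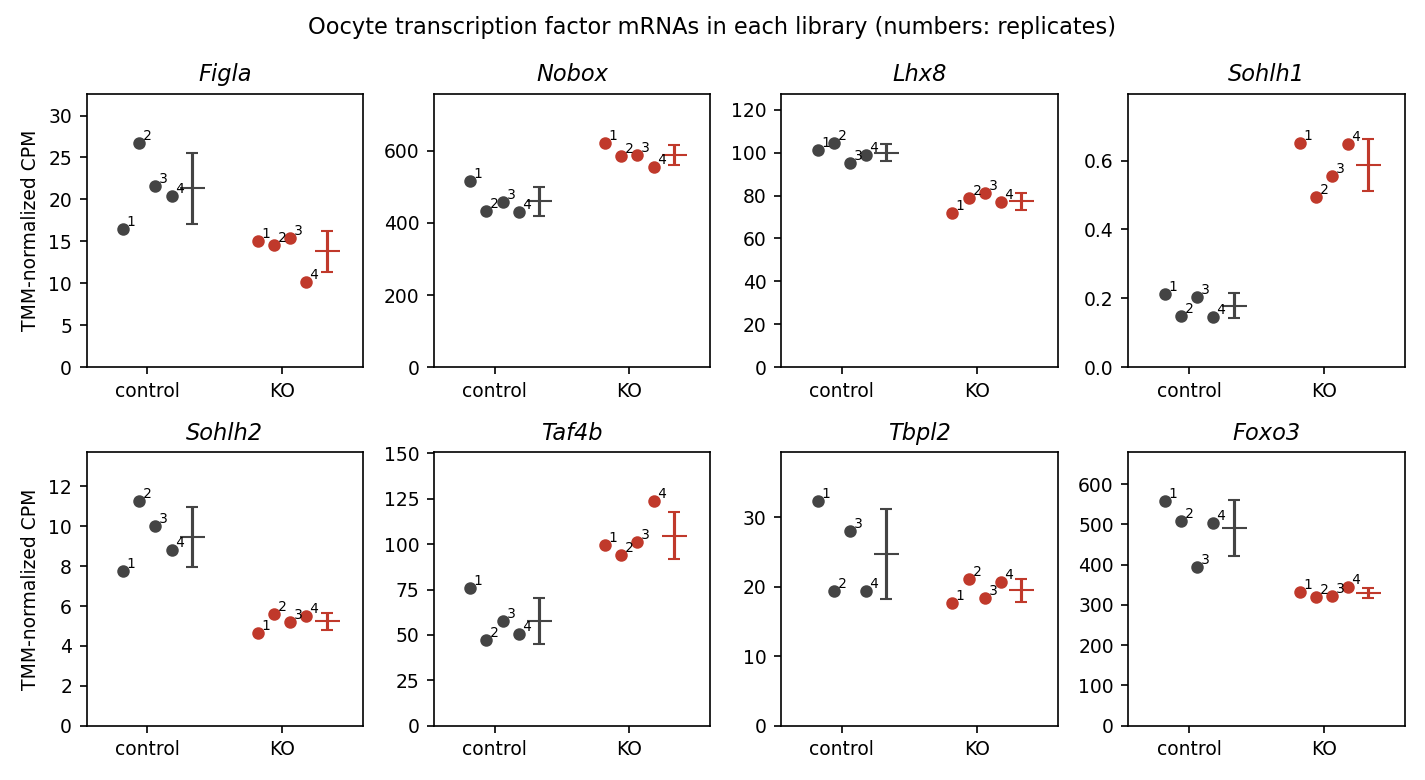
TMM-scaled CPM of the 8 genes in each library, with 1 panel per gene, points for libraries and a bar for the mean ± SD (n = 4) of Zp3-Cre control and CNOT7&8 KO oocytes. The groups are separate in all panels except that of Tbpl2, where KO libraries (17.7 to 21.1 CPM) lie inside the control range (19.3 to 32.3 CPM) or just below it.

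Among the germ cell bHLH and homeobox factors, Sohlh2, Figla and Lhx8 fell and Nobox rose. Sohlh2 (ENSMUSG00000027794, chr3:55182028-55209957, plus strand, GRCm38) had 7.78, 11.2, 9.9996 and 8.81 CPM in the control libraries and 4.67, 5.60, 5.18 and 5.48 CPM in the KO libraries. Every KO library was below every control library, and Sohlh2 fell to 55.3% of the control mean (log2 fold change −0.84, SE 0.18, adjusted p = 0.00151 by edgeR's quasi-likelihood test). Sohlh1 (ENSMUSG00000059625, chr2:25842995-25847248, minus strand) was close to the limit of detection, with 8, 3, 3 and 2 counts in control and 6, 9, 9 and 19 counts in KO libraries. These counts equal 0.178 ± 0.0361 CPM and 0.587 ± 0.0761 CPM (log2 fold change 1.65, SE 0.44). Before TMM scaling every control library was under the filter of 0.2 CPM (0.134 to 0.192 CPM) and every KO library above it, and 3 of the 4 control libraries had no more than 3 counts, so these values are a description. Sohlh1 is no longer tested when at least 1 CPM in 4 libraries is required.

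Figla (ENSMUSG00000030001, chr6:86016171-86020996, plus strand) had 16.5, 26.7, 21.6 and 20.5 CPM in control and 15.1, 14.6, 15.4 and 10.1 CPM in KO libraries. The groups were separate but near each other at control replicate 1 and KO replicate 3. Figla fell to 64.7% of the control mean (log2 fold change −0.63, SE 0.19, adjusted p = 0.0124). Lhx8 (ENSMUSG00000096225, chr3:154306294-154330659, minus strand) was among the least variable members within groups, at 101, 105, 95.2 and 98.7 CPM in control and 72.1, 78.9, 81.4 and 77.1 CPM in KO libraries. It fell to 77.5% of control (log2 fold change −0.37, SE 0.10, adjusted p = 0.00733), a change under 2-fold. Nobox (ENSMUSG00000029736, chr6:43303674-43309554, minus strand) went the other way, with 518, 432, 459 and 431 CPM in control and 622, 585, 590 and 555 CPM in KO libraries. It rose to 128% of control (log2 fold change 0.35, SE 0.10, adjusted p = 0.00925). The calls for Figla and Lhx8 depended on the scaling: with library sizes alone their log2 fold changes were −0.35 (adjusted p = 0.151) and −0.08 (adjusted p = 0.480), and with TMM factors from genes of at least 10 CPM they were −0.39 (adjusted p = 0.129) and −0.12 (adjusted p = 0.288).

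**Figure D2:**
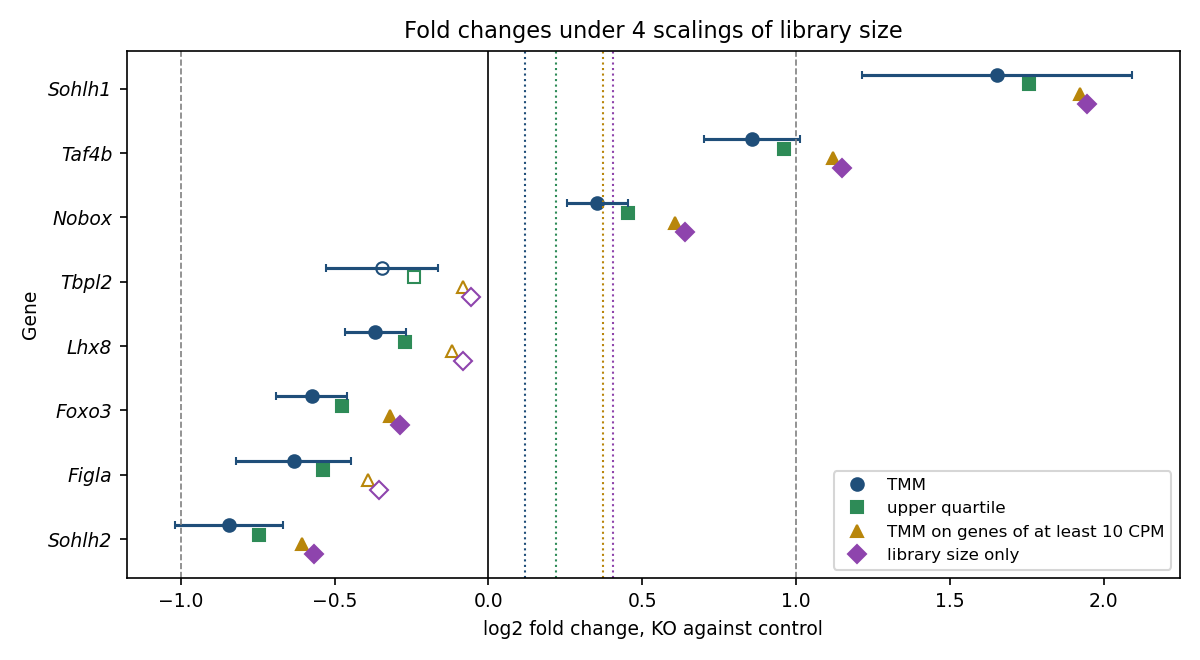
Log2 fold change (KO over control) of each member under 4 scalings of the libraries. Filled symbols have an adjusted p of at most 0.05 and open symbols do not, bars are the SE of the TMM fit, dotted lines give the median of all tested genes under each scaling and dashed lines mark 2-fold. No member crosses 0, while Figla and Lhx8 become open with library sizes alone (−0.35 and −0.08).

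Foxo3 (ENSMUSG00000048756, chr10:42181841-42276755, minus strand) was, after Nobox, the most abundant member per length. It had 557, 510, 394 and 504 CPM in control and 333, 319, 322 and 345 CPM in KO libraries. The 4 KO values lay closer together than the control values and all below them. Foxo3 fell to 67.1% of control (log2 fold change −0.57, SE 0.11, adjusted p = 0.00117), and kept that call with library sizes alone (−0.29, adjusted p = 0.0234).

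The 3′ untranslated region (3′UTR) carries elements that recruit deadenylases or poly(A) polymerases in oocytes, among them the cytoplasmic polyadenylation element UUUUAU (CPE) bound by CPEB1, the Pumilio-binding element UGUAAAUA (PRE) and the AU-rich element AUUUA (ARE). These 3 strings were searched on the sense strand of the longest annotated 3′UTR of each member (GENCODE M21, GRCm38). Figla, Nobox, Sohlh1 and Tbpl2 had short 3′UTRs of 120, 281, 162 and 266 bases with no UUUUAU, whereas Lhx8 (665 bases), Sohlh2 (921 bases), Taf4b (2231 bases) and Foxo3 (4490 bases) held 2, 3, 3 and 4 copies. UUUUAU was present in 56.2% of 15125 tested protein-coding genes with a 3′UTR of at least 50 bases, and in 15.0% of those with at most 300 bases, 39.5% with 301 to 1000 bases, 72.2% with 1001 to 3000 bases and 92.3% with longer ones. UGUAAAUA occurred once in each of Lhx8 and Foxo3 (11.99% of genes), and AUUUA in Lhx8, Taf4b, Tbpl2 and Foxo3 (69.8% of genes, with 3, 6, 1 and 6 copies). By length, AUUUA was in 24.4% of 3′UTRs of at most 300 bases and 56.4% of those of 301 to 1000 bases. It was in 87.6% of those of 1001 to 3000 bases and 98.6% of longer ones. From the shortest to the longest class, the median log2 fold change of the genes was −0.20, −0.075, 0.095 and 0.22. Of the 4 members with UUUUAU, Lhx8, Sohlh2 and Foxo3 fell and Taf4b rose. Of the 4 without it, Nobox rose, Figla fell, Tbpl2 did not pass the test and Sohlh1 was close to the limit of detection. A match describes the annotated sequence and is not a site shown to be used in these oocytes.

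The windows around each UUUUAU and UGUAAAUA of the 3 members that fell and carry UUUUAU are printed because they let the bases around the elements be compared. The DNA sense strand is written 5′ to 3′, capitals mark the element, and the name gives the position of its first base counted from the base after the stop codon, then the window on GRCm38.
Lhx8, UUUUAU at 116 (chr3:154306828-154306853, minus strand): aatgttaattTTTTATttaacactca
Lhx8, UUUUAU at 192 (chr3:154306752-154306777, minus strand): tgcaagacacTTTTATtgattcttca
Lhx8, UGUAAAUA at 598 (chr3:154306344-154306371, minus strand): gagttctagcTGTAAATAacactctagt
Sohlh2, UUUUAU at 812 (chr3:55209838-55209863, plus strand): aggatggctgTTTTATatttcactga
Sohlh2, UUUUAU at 846 (chr3:55209872-55209897, plus strand): tacacaaacaTTTTATtgttaaagtg
Sohlh2, UUUUAU at 911 (chr3:55209937-55209957, plus strand): atgttttctcTTTTATaataa
Foxo3, UUUUAU at 597 (chr10:42185719-42185744, minus strand): gtatttcttcTTTTATttggtagaaa
Foxo3, UUUUAU at 1509 (chr10:42184807-42184832, minus strand): gtataaaataTTTTATcatgtacagc
Foxo3, UUUUAU at 1828 (chr10:42184488-42184513, minus strand): ccactctgccTTTTATggaatctgta
Foxo3, UUUUAU at 3786 (chr10:42182530-42182555, minus strand): tcttgttgaaTTTTATtcatttgtat
Foxo3, UGUAAAUA at 4460 (chr10:42181854-42181881, minus strand): tgatgacgcaTGTAAATAaagctttggt

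The 3 copies in Sohlh2 all lay in the last part of its 3′UTR, and the third followed the poly(A) signal AAUAAA at position 895. In Foxo3 the 4 copies were spread over the 3′UTR, and the UGUAAAUA shared bases with the poly(A) signal AAUAAA at position 4464. In Lhx8 the first UUUUAU, at position 116, shared bases with an AUUUA at position 120, and both copies lay far from the annotated end. The short 3′UTR of Figla held the signal variant AUUAAA at position 94, and that of Nobox held AAUAAA at positions 237 and 241, with none of the 3 other elements.

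**Figure D3:**
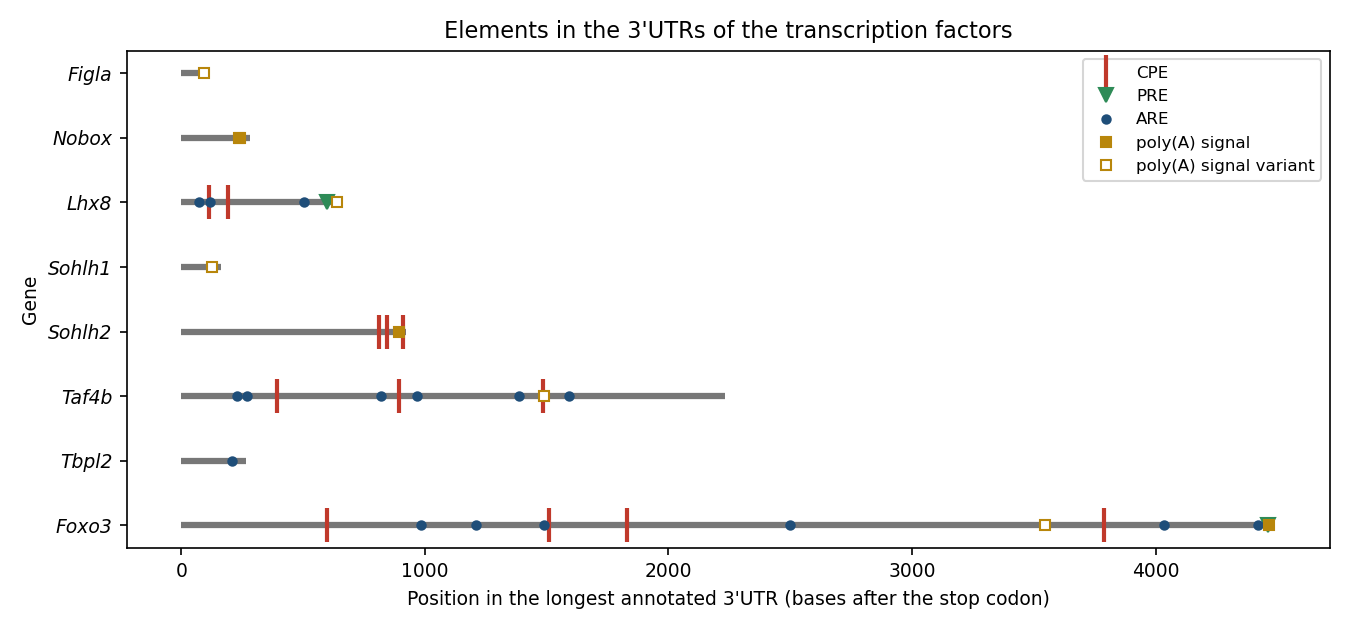
Positions of the elements along the longest annotated 3′UTR of each member, in bases from the stop codon, with symbols for the CPE, PRE, ARE, poly(A) signal AAUAAA and its variant. Copies of the CPE are seen in Lhx8, Sohlh2, Taf4b and Foxo3 (665 to 4490 bases), and none in the 4 members of 120 to 281 bases.

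Of the general transcription factor variants, Taf4b rose and Tbpl2 did not pass the test. Taf4b (ENSMUSG00000054321, on chromosome 18, 14783245 to 14900359, plus strand) had 75.7, 47.2, 57.5 and 50.5 CPM in control and 99.7, 94.3, 101 and 124 CPM in KO libraries. Every KO library was above every control library. Taf4b rose to 181% of the control mean (log2 fold change 0.86, SE 0.16, adjusted p = 0.000607), just under 2-fold. It passed 2-fold without control replicate 1 (log2 fold change 1.02), the control library with the highest Taf4b level. KO replicate 4 had the highest Taf4b level of all libraries (124 CPM). Tbpl2 (ENSMUSG00000061809, chr2:24071721-24096595, minus strand) had 32.3, 19.3, 28.0 and 19.3 CPM in control and 17.7, 21.1, 18.4 and 20.6 CPM in KO libraries. The 4 KO values were close together, and the control libraries fell into a high and a low pair, so the groups overlapped (log2 fold change −0.35, SE 0.18, adjusted p = 0.122). This p-value does not show that Tbpl2 was the same in both groups.

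Per length of merged exons, Nobox was the most abundant member in both groups, at 229 ± 20.1 CPM per kb in control and 292 ± 13.6 CPM per kb in KO oocytes. Foxo3 followed with 64.9 ± 9.13 and 43.6 ± 1.57 CPM per kb, and Lhx8 with 39.4 ± 1.55 and 30.6 ± 1.55 CPM per kb. In control oocytes Figla (25.5 ± 5.05), Tbpl2 (17.9 ± 4.70) and Taf4b (11.2 ± 2.47 CPM per kb) came next, and the ranges of Figla and Tbpl2, and of Tbpl2 and Taf4b, overlapped. In KO oocytes the order of these 3 was Taf4b (20.3 ± 2.51), Figla (16.5 ± 2.94) and Tbpl2 (14.1 ± 1.21 CPM per kb), with overlaps between neighbors. Sohlh2 (4.001 ± 0.634 and 2.21 ± 0.176 CPM per kb) and Sohlh1 (0.138 ± 0.0280 and 0.455 ± 0.0591 CPM per kb) closed the order in both groups. Taf4b moved from behind Figla and Tbpl2 in control to a place level with Figla in KO oocytes. In the ranking of all tested genes by level per length, Taf4b stood at percentile 76.4 in control and 86.6 in KO oocytes, and Sohlh2 at 61.1 and 49.2.

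Ratios of members within a library are free of the scaling between libraries. They were formed after the fold changes had been seen and are given without a test. Of the 28 pairs of members, 19 had ratios without overlap between the groups, 7 of them with Sohlh1. The ratios in this paragraph are among the 19. Each sets a member that rose over 1 that fell or was not called, so they restate the fold changes. The ratio of Nobox to Foxo3 was 3.49, 3.19, 4.38 and 3.22 in control and 7.03, 6.90, 6.88 and 6.05 in KO libraries. Its lowest KO value lay above its highest control value. The ratio of Taf4b to Tbpl2 was 0.628, 0.653, 0.549 and 0.701 in control and 1.51, 1.19, 1.48 and 1.61 in KO libraries, and the groups did not overlap. On which side of 1 this ratio lies rests on the exon lengths, since in CPM Taf4b exceeded Tbpl2 in every library. The ratio of Nobox to Lhx8 had geometric means of 5.78 and 9.57, also without overlap.

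Several members have broadly expressed relatives or partners, and 14 such genes were examined. All 14 were tested, and 4 were higher and 4 lower with the FDR, against 31.2% and 24.1% of all tested genes. The median log2 fold change was −0.08 (0.12 over all genes), which was 0.22 (0.40 over all genes) with library sizes alone. Tbp, the subunit that TBPL2 replaces, fell from 134 ± 2.12 to 85.2 ± 4.47 CPM (log2 fold change −0.65, SE 0.10, adjusted p = 0.000127). Tbpl1, the third member of that family, had 14.2 ± 2.43 and 11.0 ± 1.51 CPM (adjusted p = 0.0816). The ratio of Tbpl2 to Tbp had geometric means of 1.77 and 2.24, with overlap between the groups. That these lie above 1 rests on the merged exon lengths, 13576 bases for Tbp and 1379 bases for Tbpl2, since in CPM Tbp was the higher in both groups. Taf4, the ubiquitous counterpart of Taf4b, fell from 42.0 ± 8.03 to 27.2 ± 4.66 CPM (log2 fold change −0.63, SE 0.17, adjusted p = 0.00774), a call that was lost with library sizes alone (−0.33, adjusted p = 0.108) and with TMM on genes of at least 10 CPM (−0.37, adjusted p = 0.0658). The ratio of Taf4b to Taf4 did not depend on the scaling, at 1.35, 0.921, 1.62 and 1.13 in control and 3.90, 3.54, 2.78 and 3.77 in KO libraries. All KO values were above all control values, and the geometric means were 1.23 and 3.47.

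Among the other FOXO factors, Foxo1 had 81.4 ± 28.7 and 80.8 ± 25.8 CPM, with its highest values in control replicate 1 and KO replicate 4, and was not distinguishable between the groups (log2 fold change −0.01, adjusted p = 0.971), with a sign that turned under each of the other scalings. Foxo4 rose from 0.789 ± 0.128 to 3.07 ± 0.880 CPM (log2 fold change 1.90, SE 0.29, adjusted p = 0.000163). Both remained well below Foxo3 per length, Foxo3 being 7.15-fold above Foxo1 in control and 4.83-fold in KO oocytes, with overlap between the groups. Lhx6, a LIM-homeodomain relative of Lhx8, rose from 0.347 ± 0.263 to 1.55 ± 0.494 CPM (log2 fold change 1.98, SE 0.48, adjusted p = 0.00414). Its control libraries had 25, 9, 3 and 1 counts, so its control level was near the limit of detection. The bHLH genes of the class with which FIGLA pairs moved apart: Tcf4 rose from 4.61 ± 0.919 to 12.7 ± 2.84 CPM, Tcf12 rose from 35.5 ± 10.2 to 78.3 ± 15.1 CPM, and Tcf3 fell from 27.4 ± 9.31 to 14.5 ± 5.14 CPM. Ldb1, the cofactor of LIM-homeodomain proteins, fell from 148 ± 41.7 to 82.0 ± 26.9 CPM. The calls for Tcf3 (adjusted p = 0.0195) and Ldb1 (adjusted p = 0.0124) were lost with library sizes alone (adjusted p = 0.107 and 0.0919) and with TMM on genes of at least 10 CPM (adjusted p = 0.0999 and 0.0845).

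**Figure D4:**
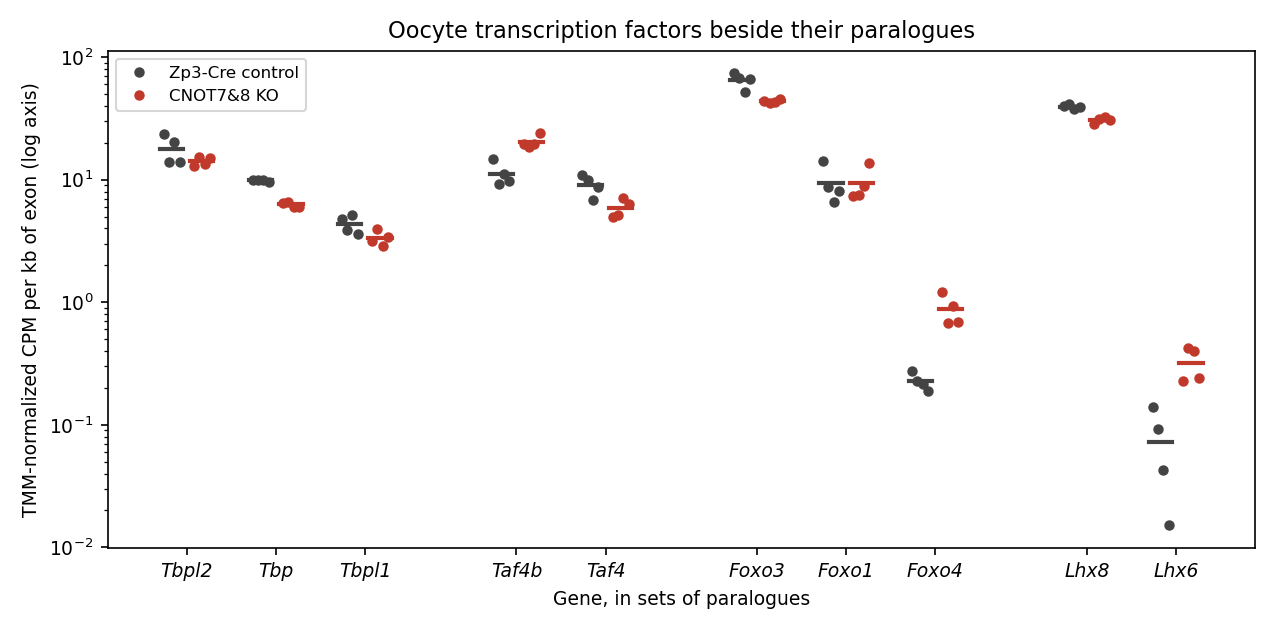
TMM-scaled CPM per kb of exon (log axis) of Tbpl2, Taf4b, Foxo3 and Lhx8 beside their relatives, with points for the 4 control and 4 KO libraries and lines for group means. Taf4b (11.2 in control, 20.3 in KO) and Taf4 (9.10 and 5.89) lie close together in control and apart in KO oocytes, while Foxo4 and Lhx6 lie below 2 CPM per kb in every library.

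Genes downstream of these factors in oocytes were mostly lower or not called. Of 15 such genes, all tested, 9 were lower (2 of them downregulated, Fgf8 and Mos) and 0 were higher by edgeR's quasi-likelihood test, a count that was also 0 with an unadjusted p under 0.05, with the exact test and with DESeq2. Among all tested genes, 24.1% were lower (6.56% downregulated) and 31.2% higher. The median log2 fold change was −0.37 (0.12 over all genes). With library sizes alone, 5 were lower and 1 (Oog1) was higher. Zp1, Zp2, Zp3, Gdf9, Bmp15 and Oosp1 are also among the oocyte markers above, so the lists are not separate. Of the FIGLA targets that form the zona pellucida, Zp1 fell from 774 ± 34.3 to 518 ± 18.8 CPM (log2 fold change −0.58, SE 0.09, adjusted p = 0.000198) with no overlap. Zp2 was not called (log2 fold change −0.21, adjusted p = 0.265; 0.08 with library sizes alone), and Zp3 passed with TMM factors (log2 fold change −0.37, adjusted p = 0.0485) but under none of the other scalings. The oocyte growth factors Gdf9 and Bmp15, which depend on NOBOX, had log2 fold changes of −0.07 (adjusted p = 0.667) and −0.13 (adjusted p = 0.399), both above 0 with library sizes alone. Pou5f1, also dependent on NOBOX and added after its value was seen, fell from 234 ± 55.5 to 134 ± 28.6 CPM. Its groups overlapped (log2 fold change −0.81, SE 0.19, adjusted p = 0.00368 by the quasi-likelihood test). Kit, the receptor for granulosa-derived KIT ligand, fell from 168 ± 36.6 to 85.4 ± 24.9 CPM (log2 fold change −0.97, SE 0.20, adjusted p = 0.0013). Mos, the kinase that drives MAPK activation in meiosis, fell from 624 ± 236 to 257 ± 75.8 CPM (log2 fold change −1.28, SE 0.29, adjusted p = 0.00289), although its groups overlapped. Fgf8, an oocyte-secreted growth factor, fell from 27.2 ± 9.76 to 8.06 ± 2.99 CPM (log2 fold change −1.77, SE 0.34, adjusted p = 0.000851).

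TAF4B and TBPL2 work beside the other subunits of TFIID and TFIIA, of which 19 were in the table and 18 were tested (Taf9 had almost no counts). In KO oocytes 10 were lower and 2 were higher, against 24.1% and 31.2% of all tested genes. Their median log2 fold change was −0.44 (0.12 over all genes). With library sizes alone, 5 were lower and 6 higher, with a median of −0.15 (0.40 over all genes). The 2 that were higher were Gtf2a1l, the germ cell form of the large TFIIA subunit, which rose from 69.96 ± 7.98 to 113 ± 13.2 CPM (log2 fold change 0.69, SE 0.13, adjusted p = 0.000607), and Taf11, which rose from 36.6 ± 3.22 to 58.6 ± 6.38 CPM (log2 fold change 0.68, SE 0.12, adjusted p = 0.000613). Taf10 fell from 41.3 ± 2.11 to 23.6 ± 2.81 CPM (adjusted p = 0.000211) and Taf13 from 34.9 ± 13.3 to 19.2 ± 1.12 CPM (adjusted p = 0.00526), beside Tbp.

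Of 20 genes of the pathway from KIT through PI3K and AKT to the FOXO factors, all tested, 5 were higher and 4 lower. Among all tested genes, 31.2% were higher and 24.1% lower. The median log2 fold change was −0.06 (0.12 over all genes), or 0.22 (0.40 over all genes) with library sizes alone. Upstream of FOXO3, the kinase genes Pdpk1 (221 ± 55.3 to 133 ± 23.2 CPM, adjusted p = 0.00319) and Akt1 (81.3 ± 21.5 to 45.6 ± 11.7 CPM, adjusted p = 0.00732) fell with Kit, and the call for Akt1 was lost with library sizes alone (adjusted p = 0.0723) and with TMM on genes of at least 10 CPM (adjusted p = 0.0658). Tsc1, an inhibitor of mTORC1, rose from 116 ± 23.3 to 195 ± 36.1 CPM (log2 fold change 0.75, SE 0.16, adjusted p = 0.00214), and Rptor, an mTORC1 subunit, from 19.6 ± 4.05 to 29.6 ± 6.90 CPM (adjusted p = 0.023). Sgk1 and Tsc2 were chosen after their values were seen. Sgk1 rose (adjusted p = 0.00607, and past the threshold under all 18 alternatives). Tsc2 was called lower (adjusted p = 0.0433), but kept that call under only 2 of 18 alternatives, DESeq2 and RLE scaling (adjusted p of 0.0305 to 0.573 over all 18).

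**Figure D5:**
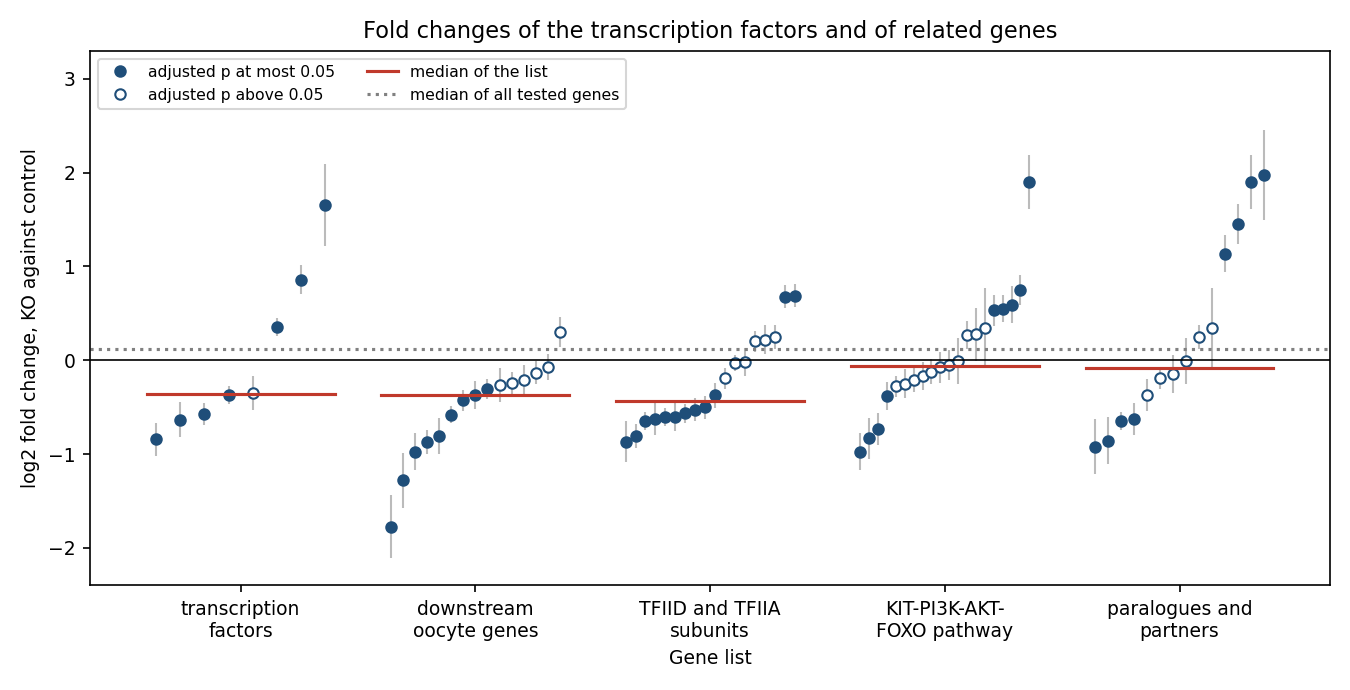
Log2 fold change (KO over control, TMM scaling) of every tested gene in the 5 gene lists, with SE bars, filled points at an adjusted p of at most 0.05, red lines for list medians and a dotted line for the median of all tested genes (0.12). The downstream genes (median −0.37) and TFIID and TFIIA subunits (median −0.44) lie mostly below 0; with library sizes alone, not plotted, their medians are −0.10 and −0.15.

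The gene whose pattern was most like that of each member over the 8 libraries was found among 13757 genes of at least 1 CPM, by Pearson's r of log2 CPM. These were Farsa for Figla (r = 0.995), Gusb for Nobox (r = 0.991), Kcmf1 for Lhx8 (r = 0.993), 1700023E05Rik for Sohlh2 (r = 0.992), Ddit4l for Taf4b (r = 0.998), Clk1 for Tbpl2 (r = 0.991) and Cry1 for Foxo3 (r = 0.995). With 8 libraries in 2 groups such values are frequent, and the number of genes at r of at least 0.95 was 812 for Taf4b, 330 for Figla, 278 for Lhx8, 200 for Foxo3, 168 for Nobox, 121 for Sohlh2 and 11 for Tbpl2. The libraries share depth and scaling, and r describes likeness of the pattern over libraries, not of level or of the size of the change. Gusb, for example, went from a control mean of 0.187 ± 0.256 to 1.91 ± 0.586 CPM in KO oocytes (Nobox 460 ± 40.4 and 588 ± 27.3), and Ddit4l 0.847 ± 0.507 and 3.42 ± 0.980 CPM (Taf4b 57.7 ± 12.7 and 105 ± 12.9). Sohlh1, below 1 CPM, was not compared.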

How the data were processed

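Total RNA of 8 pools of GV oocytes was sequenced in paired reads. The libraries were stranded, made with an mRNA kit whose purification the methods describe as ribosomal RNA depletion. Per the labels, reads were aligned with STAR 2.6.1d to GRCm38 and analyzed with edgeR 3.11. The counting tool, annotation and strand setting are not given in the sources used here. The deposited counts are whole numbers per gene, made by the authors without normalization. The members and lists were chosen with earlier results of these data known.

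Genes with at least 0.2 CPM in at least 2 libraries were fitted with edgeR 4.0.16 (R 4.3.3; TMM factors, quasi-likelihood test of KO against control), with Benjamini-Hochberg adjustment over all 19241 genes; the exact test and DESeq2 1.42.0 were alternatives. The SE is the absolute log2 fold change over the square root of F. The script was tested on simulated data. All members are named, with the 3 genes per list that rose or fell most (FDR of at most 0.05, mean of at least 1 CPM), the relatives, zona genes, Gdf9, Bmp15 and markers. Exon lengths, coordinates and 3′UTRs are from GENCODE M21 (GRCm38), and 3′UTR sequences from its transcript sequences. No exon of a member shares bases with another annotated gene. Intervals of counts were not computed, and 3 counts were taken as the limit of detection. The values of 1 listed gene are not reported here.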

Additional observations from a re-analysis of the deposited data

Results flagged for a closer look

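In 68 groups of 4 libraries (34 named genes, control and KO), a single library lay far from the other 3 by Dixon's ratio in 9. Chance flags about 1 in 20, or 3.4, if the groups are independent. These are not, since all genes share the same libraries, so 9 cannot be read as an excess. All flags but that of Tbp fell in control replicate 1 or KO replicate 4. Of the members, Figla had 10.1 CPM in KO replicate 4 (14.6 to 15.4 CPM in the others). In control replicate 1, Zp2 had 3719 CPM (2270 to 2518), Zp3 1283 CPM (1829 to 1884), Taf11 41.4 CPM (34.8 to 35.1), Tsc1 151 CPM (101 to 109) and Pdpk1 304 CPM (186 to 198). In KO replicate 4, Zp3 had 1027 CPM (1407 to 1450) and Pdpk1 168 CPM (119 to 126). In control replicate 4, Tbp had 131 CPM, while the others all had 135 CPM.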

How the results depend on the processing

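No member changed its direction under any alternative run. Of 143 fold changes of members under alternatives, 139 kept their side of the threshold and 4 lost it: Figla (−0.35 with library sizes alone, −0.39 with TMM on genes of at least 10 CPM) and Lhx8 (−0.084 and −0.12). These scalings raise the median of all genes from 0.12 to 0.40 and 0.37. Under both, 2 members were upregulated and 2 were lower, as Taf4b passed 2-fold and Figla and Lhx8 lost their calls; with at least 1 CPM in 4 libraries 0 were upregulated, because Sohlh1 was not tested. With each library left out in turn, 1 to 2 members were upregulated (2 without control replicate 1), 3 were higher and 4 lower. Under the same 2 scalings, 1 relative or partner and 2 genes of the KIT–PI3K–AKT–FOXO pathway were lower. Of the downstream genes 5 were lower with library sizes alone, and 1 (Oog1) was higher with library sizes, upper quartile scaling, TMM on genes of at least 10 CPM, and without control replicate 1 and KO replicate 4 (an alternative chosen after seeing the data); leaving out single libraries gave 0 to 1 (1 without control replicate 1 or KO replicate 3). Of the TFIID and TFIIA subunits, 6 were higher with library sizes and with TMM on genes of at least 10 CPM, and 4 with upper quartile scaling, with at least 1 CPM in 4 libraries, and without control replicate 1 and KO replicate 4; leaving out single libraries gave 2 to 4 (4 without control replicate 1). Lower were 5 with library sizes and 6 with TMM on genes of at least 10 CPM. The cause was not tested. The control level of Nobox was 207 CPM per kb with library sizes alone, and that of Lhx8 was 35.8, or 48.1 with the longest transcript as length.

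Over all alternatives the adjusted p ranged from 0.00253 to 0.151 for Figla, 4.05e-05 to 0.0346 for Nobox, 0.000686 to 0.480 for Lhx8, 9.19e-05 to 0.0218 for Sohlh2, 8.98e-07 to 0.00302 for Taf4b, 0.0647 to 0.799 for Tbpl2 and 4.46e-05 to 0.0234 for Foxo3 (edgeR or DESeq2). Same-numbered libraries did not deviate together (r = −0.15, −0.10, 0.24 and −0.28), and the libraries were fitted as unpaired. Such values cannot show that libraries with the same number were handled separately. With the replicate block 9712 genes passed the FDR against 10628, and the members had the same calls (Figla −0.63, Taf4b 0.88, Foxo3 −0.56). Depth limits Sohlh1, where 3 counts are 0.0680 to 0.347 CPM.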
